A study of Mus musculus with 2 samples.

Results

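The 4 Hox clusters of the mouse genome were described by methylated DNA immunoprecipitation on a tiling array (MeDIP-chip), in mouse embryonic fibroblasts (MEFs) with and without thymidine. Members were the genomic probes whose mm9 start lay in chromosome 6 from 52.1 to 52.22 Mb (HoxA), chromosome 11 from 96.02 to 96.24 Mb (HoxB), chromosome 15 from 102.74 to 102.88 Mb (HoxC) or chromosome 2 from 74.49 to 74.61 Mb (HoxD). These windows held 410 of the 174638 genomic probes on each array, 125 in HoxA, 101 in HoxB, 78 in HoxC and 106 in HoxD, in 49 of 22170 tiled regions. The rule uses positions alone and no measured value. One array was of untreated C57BL/6 MEFs, taken from embryos at E14.5 and cleared with magnetic beads of cells bearing CD45, CD41, CD31 and c-Kit, which mark blood progenitors. The other array was of such MEFs given 100 µM thymidine for 2 days. Both cultures grew on feeders, MEFs stopped from dividing by mitomycin, and removal of the feeders is not mentioned. For the treated sample a CD45 sort is named in its source, CD45 being a surface protein of blood cells, and its input is called MEFs in 1 field and thymidine-treated in another. With 1 array per condition there was no spread between replicates and no test, and every value describes these 2 arrays. An array of DNA measures no marker transcripts, so the labelled cell type could not be checked.

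Hox genes encode homeodomain transcription factors that give cells of the embryo their position along the head to tail axis and along the limbs. They lie in 4 clusters that arose by duplication, and members of the same number in different clusters are paralogues. The order of the genes along a cluster matches the order of their expression domains, with low-numbered genes acting towards the head and high-numbered genes towards the tail and the tips of the limbs. The clusters are rich in CpG islands and are known as large domains of Polycomb repression where they are silent. Fibroblasts keep Hox expression patterns of the body site they come from.

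In RefSeq's mouse gene table (GRCm38.p6) all 39 Hox genes were found, 11 in HoxA, 10 in HoxB, 9 in HoxC and 9 in HoxD. Along the chromosome the genes of HoxA ran from low to high numbers, and those of HoxB, HoxC and HoxD from high to low numbers, except that by its start Hoxb3 is listed ahead of Hoxb4 and Hoxd3 ahead of Hoxd4. That table is of another build than the array, so its coordinates were not used, and it served only for names and order. Regions are therefore numbered within each cluster from the low-numbered end of the genes, and a region number is not a gene number. Which gene, exon or intron a region covers is not reported.

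The antibody binds 5-methylcytosine, which in differentiated mouse cells lies almost only in the dinucleotide CG, so the number of CG sets how many methyl groups a fragment can carry. RefSeq promoter sequences, taken as the 250 bases before a gene's start, were at hand for 22 of the 39 Hox genes, with 24 promoters. Of these genes 9 were in HoxA, 3 in HoxB, 1 in HoxC and 9 in HoxD. The 24 promoters held a median of 12.5 CG on the strand shown, from 2 to 35, against a median of 6 over 32841 mouse promoters of the same length. At least 1 CG stood in 100% of the Hox promoters and in 92.1% of all promoters. Below are, among these 24, the promoter with most CG in each cluster and the promoter with fewest, the first of a pair listed for Hoxd11. They show the extremes of CG number among these promoters, and not the typical promoter of a cluster. Hoxc4 was the only HoxC gene with a sequence. Each runs 5′ to 3′ on the gene's strand, with every CG in capitals, and none is tied to a tiled region.
Hoxa13: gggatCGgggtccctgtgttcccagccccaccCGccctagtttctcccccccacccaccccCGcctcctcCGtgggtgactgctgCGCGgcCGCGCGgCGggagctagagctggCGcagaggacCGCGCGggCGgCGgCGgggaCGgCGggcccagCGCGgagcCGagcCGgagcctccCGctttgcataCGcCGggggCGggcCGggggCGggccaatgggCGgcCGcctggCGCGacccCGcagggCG
Hoxb4: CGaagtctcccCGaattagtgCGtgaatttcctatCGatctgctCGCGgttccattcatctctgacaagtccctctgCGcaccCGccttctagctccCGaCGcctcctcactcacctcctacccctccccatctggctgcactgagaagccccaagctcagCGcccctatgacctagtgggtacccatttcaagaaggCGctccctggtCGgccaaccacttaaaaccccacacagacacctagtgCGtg
Hoxc4: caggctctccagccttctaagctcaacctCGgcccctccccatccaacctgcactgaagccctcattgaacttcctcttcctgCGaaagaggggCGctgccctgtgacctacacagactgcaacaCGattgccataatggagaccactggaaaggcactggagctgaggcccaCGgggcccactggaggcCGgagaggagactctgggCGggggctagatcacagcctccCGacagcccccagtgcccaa
Hoxd13: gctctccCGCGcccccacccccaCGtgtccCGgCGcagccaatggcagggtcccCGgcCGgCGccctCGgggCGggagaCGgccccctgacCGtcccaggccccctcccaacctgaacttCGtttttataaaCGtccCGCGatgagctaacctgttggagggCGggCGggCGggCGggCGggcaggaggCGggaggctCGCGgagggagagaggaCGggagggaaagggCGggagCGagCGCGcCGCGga
Hoxd11: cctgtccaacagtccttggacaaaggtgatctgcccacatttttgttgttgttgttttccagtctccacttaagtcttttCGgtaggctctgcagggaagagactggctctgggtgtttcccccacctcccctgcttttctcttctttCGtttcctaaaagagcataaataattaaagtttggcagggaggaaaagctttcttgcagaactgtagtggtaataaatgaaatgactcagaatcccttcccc
Hoxa13 and Hoxd13, the high-numbered genes that pattern digits and the urogenital tract, held 35 and 31 CG in these windows, more than 97.0% and 94.8% of all promoters. Hoxb4 held 14, Hoxc4 held 8 and the Hoxd11 window held 2, where the other promoter listed for Hoxd11 held 20.

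The Cy5 signal of a probe came from the precipitate and its Cy3 signal from the input, and the level reported is log2 of precipitate over input, centred on the median of all probes kept on that array. A level of 0 is thus the typical probe of the array and not an unmethylated one, and a level depends on the CG content of the fragment as well as on its methylation. Probes were kept where their input signal stood well above background in untreated and treated cells alike. This held for 358 of the 410 Hox probes (87.3%), against 142569 of 174638 overall (81.6%). The precipitate was well above background on both arrays at 303 of the 358 (84.6%, against 82.8% of all kept probes). It was so on neither array at 42 of the 358, against 19808 of the 142569. The ratio of such a dim probe is low but its size is uncertain. Levels over probes measured in both channels (input and precipitate well above background on both arrays) were centred on the median of such probes. Those without the filter on dim probes were likewise centred anew, so both have another zero than the main levels. Over all Hox probes the median raw spot signal was 10.9 and 11.7 times the local background in the input of the untreated and treated array, and 7.03 and 6.01 times in the precipitate. Spots of the same control probe (19 probes, 211 spots) had a median SD of 0.09 in untreated cells and 0.12 in treated cells, and the SD of their difference was 0.14, which is an error within arrays only.

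The clusters sat slightly above the typical probe of the array by their medians, and 1 of their 49 regions had a median of -1 or less. Over the 358 probes the median level was 0.12 (SD over probes 0.88) in untreated cells and 0.14 (SD 0.79) in thymidine-treated cells, against 0 by construction for all probes. Probes outside the clusters had an SD of 0.98 and 0.87.

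HoxA had medians of 0.14 without and 0.13 with thymidine, over 110 probes with SDs of 0.77 and 0.70. HoxB had 0.10 and 0.08 over 93 probes (SD 0.86 and 0.78). HoxC had 0.15 and 0.32 over 69 probes (SD 1.12 and 0.97). HoxD had 0.08 and 0.16 over 86 probes (SD 0.83 and 0.75). In untreated cells the 4 medians lay between 0.08 and 0.15, and in treated cells HoxC stood highest. With 1 array per condition the error of a cluster median over cultures is unknown. The treated level of HoxC was 0.07 as a mean over probes, 0.16 with normexp background correction and with no filter on dim probes, and 0.17 with loess. In the authors' deposited table it was 0.14. The log base of that table is not stated, so its sizes may be on another scale.

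The rest of chromosome 6 had medians of -0.03 and -0.02 in untreated and treated cells, that of chromosome 11 had 0.03 and 0.03, that of chromosome 15 had 0.02 and 0.03, and that of chromosome 2 had 0.01 and -0.01. Stretches as long as each cluster on both of its sides were sparsely tiled, with 23, 51, 13 and 14 kept probes beside HoxA, HoxB, HoxC and HoxD. Their medians in untreated cells were 0.20, -0.02, -0.04 and 0.17, and in treated cells 0.19, 0.03, 0.12 and 0.21. Against such thin flanks neither HoxA nor HoxD stood higher.

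Single probes at the extremes were about as frequent in the clusters as elsewhere. A level of -1 or less was found at 47 Hox probes in untreated cells (13.1%, against 15.0% of all kept probes) and at 30 in treated cells (8.38%, against 11.3%). A level of 1 or more was found at 28 (7.82%, against 7.17%) and at 36 (10.1%, against 7.6%). Low probes made up 7.27% of HoxA on each array, 15.1% and 7.53% of HoxB, 17.4% and 13.0% of HoxC and 15.1% and 6.98% of HoxD. High probes numbered 11 of 110 in HoxA on each array and made up 6.45% and 10.8% of HoxB, 7.25% and 8.70% of HoxC and 6.98% and 10.5% of HoxD. These counts moved with the processing: normexp left 5 and 0 low probes and 15 and 16 high ones, and requiring both channels above background left 12 and 7 low ones.

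The same probes tended to be extreme on both arrays. Of the Hox probes 28 were at -1 or less on both arrays (10.1% of all probes were) and 23 at 1 or more on both (5.15% of all were). The correlation between the arrays across the 358 probes was 0.92, against 0.93 across all kept probes, and probes share the arrays and are not replicates. High probes on both arrays numbered 10 in HoxA, 6 in HoxB, 4 in HoxC and 3 in HoxD. Low ones numbered 7, 7, 9 and 5. Probes high on both arrays lay in 17 of the 49 regions and probes low on both in 22, and 6 regions held both kinds. The share over all regions is not reported, so these counts show neither an excess nor a lack. Hox regions kept a median of 7 probes, against 6 over all regions.

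Single probes are named next for having the highest or lowest mean of both arrays in a cluster, a choice made with their values known. The highest in HoxC, on chromosome 15 from 102784663 to 102784710, reached 2.07 without and 2.00 with thymidine. The highest in HoxA, on chromosome 6 from 52162568 to 52162612, had 1.94 and 1.97. The highest in HoxB, on chromosome 11 from 96148367 to 96148411, had 1.68 and 1.93. In HoxD the highest, on chromosome 2 from 74535545 to 74535589, had 1.57 and 1.62. All 4 were well above background in both channels on both arrays. The lowest probe of HoxB, on chromosome 11 from 96147942 to 96148001, had -3.47 and -1.96, and lies in the same region as the highest. The lowest probes of HoxA, HoxC and HoxD had -2.41 and -1.49, -2.98 and -2.35, and -2.51 and -2.50. None of these 4 lowest probes had a precipitate signal well above background on either array.

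Along the clusters, the 49 tiled regions spanned a median of 1682 bp (1351 to 3937 bp), with probes of 45 to 60 bases at a median spacing of 210 bp, and kept a median of 7 probes. All 49 had at least 3 kept probes. Their median levels ranged from -1.01 to 0.76 in untreated and from -1.30 to 0.65 in treated cells. No Hox region reached a median of 1 on either array, and 1 region, in HoxC, was at -1 or less on both (4.97% of 21518 regions were in untreated and 3.69% in treated cells). In untreated cells 30 of the 49 (61.2%) had a median above 0, against 50.4% of all regions, and in treated cells 34 (69.4%), against 50.5%. The SD between Hox region medians was 0.33 in untreated and 0.36 in treated cells, against 0.56 and 0.50 over all regions. Within a Hox region single probes scattered by an SD of 0.89 and 0.78, against 0.90 and 0.80 within regions over all kept probes. A median of several probes varies less than a single probe, so the SDs within and between regions are unlike measures.

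In HoxA, which patterns the hindbrain, limbs and reproductive tract, the highest region lay towards the low-numbered end. Region 5 (chromosome 6 from 52154090 to 52155782) had the highest median of all 49 regions, 0.76 in untreated (SD over 9 probes 0.43) and 0.65 in treated cells (SD 0.53), above 98.4% of all regions by the mean of the arrays. All 9 of its probes were measured in both channels, and 8 of 9 were above 0 in untreated cells. Centred on the median of probes measured in both channels, the same 9 probes gave 0.61 and 0.51. Region 3 (52141208 to 52142863) had 0.57 and 0.44 (SD over 6 probes 0.73 and 0.66), with 2 probes above 1 on both arrays. Region 11 (52190407 to 52192087), near the high-numbered end, had 0.40 and 0.60 (SD over 6 probes 0.50 and 0.44). By the mean of the arrays regions 3 and 11 were level, at 0.503 each. For these 3 the authors' deposited table gave 0.47 and 0.49, 0.44 and 0.20, and 0.32 and 0.44. In that table region 6 (52158133 to 52159811) had the highest HoxA values, 0.58 and 0.59, where the scanner signals gave 0.33 and 0.64.

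The lowest HoxA regions were region 4, region 8 and region 9. Region 4 (52149827 to 52151570) lies directly before the highest region and had -0.52 and -0.29 (SD over 8 probes 0.33 and 0.49). The lowest and the highest region of HoxA were thus neighbours. Region 8 (52168073 to 52169689) had -0.22 and -0.31 (SD over 8 probes 1.20 and 0.89), and region 9 (52176885 to 52178604) had -0.06 and -0.29 (SD over 9 probes 0.53 and 0.52). The untreated sign of region 9 turned with loess, to 0.07. Without the filter on dim probes it was 0.01, from the same 9 probes centred anew. By position, the 6 regions of the low-numbered end had a median of 0.22 and 0.35 and the 6 of the high-numbered end 0.10 and -0.03. The ranges overlapped, at -0.52 to 0.76 and -0.22 to 0.40 in untreated cells.

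HoxB, whose low-numbered genes pattern the hindbrain, had its highest level at the other end. Region 13 (chromosome 11 from 96054405 to 96056158), the one farthest to the high-numbered side, had 0.63 and 0.62 (SD over 8 probes 0.85 and 0.85), above 97.2% of all regions. Region 12 (96063677 to 96065254) had 0.34 and 0.34 (SD over 6 probes 0.96 and 0.90), with 4 of 6 probes measured in both channels. Without the filter on dim probes region 12 was at -0.31 and 0.07, so its untreated sign turned. Region 2 (96211655 to 96213198) had 0.37 and 0.23 (SD over 7 probes 1.18 and 1.16). These spreads were larger than the levels themselves.

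The lowest HoxB level was in region 9 (96142076 to 96143426), at -0.71 and -0.51 (SD over 7 probes 0.93 and 1.01). Its 7 probes ran from -1.70 to 0.76 in untreated cells, and the 3 probes at -1.26, -1.26 and -1.70 lacked a precipitate signal well above background on at least 1 array. Over probes measured in both channels, centred on the median of such probes, region 9 was at 0.05 and 0.09, so its sign turned. Region 10 (96131358 to 96133098) had -0.33 and 0.05, against an untreated level of 0.19 over probes measured in both channels and a treated level of -0.32 without the filter on dim probes, and region 4 (96183335 to 96184736) had -0.10 and -0.23. By position, medians were 0.05 and 0.08 at the low-numbered end and 0.09 and 0.04 at the high-numbered end, over 6 regions each.

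HoxC, which has no members below number 4, held the lowest Hox region. Region 2 (chromosome 15 from 102843203 to 102844762), towards the Hoxc4 end, had a median of -1.01 in untreated cells (SD over 8 probes 1.59) and -1.30 in treated cells (SD 1.52), and 3.5% of all regions were lower by the mean of the arrays. In base order its untreated levels were -0.82, 0.85, 0.47, -3.03, -1.21, -2.65, -2.98 and 0.15. The 4 consecutive low probes, from 102843826 to 102844557, were at -1 or less on both arrays, with treated levels of -2.27, -1.70, -2.14 and -2.35. None of the 4 had a precipitate signal well above background on both arrays, and the other 4 probes did. Over probes measured in both channels, centred on the median of such probes, the sign turned, to 0.16 and 0.61. These 2 values thus have another zero than the probe levels above. The authors' deposited table gave the region -0.54 and -0.25. The low level thus rests on a stretch of 4 dim probes beside 4 measured probes between -0.82 and 0.85.

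The other low HoxC regions were region 8 (102777887 to 102779590), at -0.45 and -0.01 (SD over 7 probes 1.17 and 1.01), and region 10 (102750289 to 102751867), the last of the high-numbered end, at -0.34 and -0.19 (SD over 5 probes 0.45 and 0.59). For region 8 the sign turned with loess, to 0.31 and 0.16, over probes measured in both channels, to 0.25 and 0.30, and in the authors' deposited table, to 0.17 and 0.16. With normexp its treated level was 0.12 and without the filter on dim probes 0.07. The highest were region 3 (102838708 to 102840270), which neighbours region 2, at 0.41 and 0.57 (SD over 6 probes 1.07 and 0.78), region 4 (102819701 to 102821452) at 0.28 and 0.63 (SD over 8 probes 0.69 and 0.74), and region 9 (102766009 to 102767714) at 0.36 and 0.48 (SD over 6 probes 1.40 and 0.90). In the authors' deposited table the untreated level of region 9 was -0.03. Medians of the 5 regions towards each end were 0.21 and 0.08 towards Hoxc4 and 0.10 and 0.17 towards Hoxc13.

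HoxD, whose high-numbered genes shape the limbs and digits, was the flattest cluster in untreated cells, with region medians from -0.26 to 0.46 and an SD between them of 0.22. Region 3 (chromosome 2 from 74558979 to 74560399) had 0.46 and 0.55, but only 4 of its 7 probes were kept (SD 0.70 and 0.69). Region 12 (74505167 to 74506676) had 0.35 and 0.47 (SD over 7 probes 0.68 and 0.60), and region 7 (74534523 to 74536204) had 0.31 and 0.37 (SD over 7 probes 0.84 and 0.84). The lowest were region 13 (74496978 to 74498733), the outermost on the Hoxd13 side, at -0.26 and -0.21 (SD over 9 probes 1.36 and 1.16), region 8 (74528648 to 74530367) at -0.18 and -0.27 (SD over 5 probes 0.66 and 0.79) and region 9 (74519091 to 74520868) at 0.01 and 0.02 (SD over 6 probes 0.66 and 0.70). The 6 regions towards each end had medians of 0.10 and 0.13 on the Hoxd1 side and -0.09 and 0.12 on the Hoxd13 side. The treated level of region 13 was 0.08 over probes measured in both channels, 0.04 in the authors' deposited table and 0.01 with normexp. The treated level of region 9 was -0.24 with loess and -0.13 with normexp. Over its 5 probes measured in both channels it was -0.02 as centred anew, but 0.12 with the main centring. In each of the 4 clusters the ranges of the regions towards either end overlapped on both arrays.

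The arrays also compare thymidine-treated with untreated cells within the clusters. No Hox region passed the size rule, which asks for a median difference, treated minus untreated, of at least 0.5 in size with at least 80% of probes of that sign. Over all 21518 regions 152 (0.706%) passed as higher and 12 (0.0558%) as lower, so a count of 0 in 49 regions is near that background. The Hox region differences ran from -0.22 to 0.44. With a size of 0.3 in place of 0.5, 3 Hox regions were higher, against 5.05% of all regions, and 0 lower, against 0.692%. The 3 were HoxB region 10, HoxD region 11 and HoxC region 10, the last higher by 0.31 (SD 0.27, n = 5 probes), with 4 of 5 probes higher.

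Below that size, differences above 0 were common. The median difference over the 358 Hox probes was 0.12 (SD over probes 0.35), against 0.07 over all kept probes. It was 0.06 in HoxA (SD 0.32, n = 110 probes), 0.12 in HoxB (SD 0.35, n = 93), 0.21 in HoxC (SD 0.37, n = 69) and 0.13 in HoxD (SD 0.34, n = 86). A median of probe differences need not equal the difference of the medians, and in HoxA and HoxB the treated median was not above the untreated one. HoxA was close to the value of the whole array and HoxC was above it. Among Hox probes 65.4% were higher in treated cells, against 57.5% of all, with 60.0% in HoxA, 67.7% in HoxB, 69.6% in HoxC and 66.3% in HoxD.

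Over regions, 43 of 49 medians were above 0 (87.8%), against 65.1% of all regions. This was the case for 9 of 13 in HoxA, 13 of 13 in HoxB, 10 of 10 in HoxC and 11 of 13 in HoxD. The count above 0 was 38 of 49 once the trend of the difference with ratio level was removed (49.7% of all regions), 39 with quantile normalisation (50.6%), 41 with loess (60.2%), 40 with both channels above background (60.1%) and 39 with normexp (64.5%). In the authors' deposited table it was 36 (52.9% of all regions). From the precipitate signals alone, where all regions split evenly about 0, it was 23. All regions share the same cultures and the same 2 arrays, so these counts are a description.

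Few single probes stood apart. A difference of at least 0.5 was seen at 49 Hox probes (13.7%, against 11.0% of all) and of -0.5 or less at 10 (2.79%, against 4.43%). In HoxC 13 of 69 probes were higher by this size (18.8%) and 0 lower, and in HoxD 12 of 86 were higher and 6 lower. At a size of 1, 6 Hox probes were higher (1.68%, against 1.07%) and 0 lower (0.0926% of all). By the scanner software's own error, whose median for a Hox difference was 0.33, 10 of the 358 differences (2.79%, against 2.95% of all) lay beyond 2 errors. The highest difference at a probe measured in both channels on both arrays was in HoxC on chromosome 15 from 102796747 to 102796798, at 1.51 (scanner error 0.42), with levels of -1.62 and -0.11. Its input signal differed by -0.98 and its precipitate signal by 0.46. The probe was chosen after its value was seen.

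In each cluster the median input difference was larger in size than that of the precipitate, though in HoxA both were near 0. The median input difference, centred on that of all probes, was -0.10 in HoxC, -0.05 in HoxB, -0.04 in HoxD and -0.01 in HoxA. The precipitate difference was 0.04, 0.00, -0.01 and -0.00. With the precipitate signal alone the HoxC value was 0.04 in place of 0.21, and the median over all probes was 0.00 in place of 0.07. Over the 49 regions the precipitate difference ran from -0.19 to 0.20 with a median of -0.00, and 23 were above 0. The input difference ran from -0.24 to 0.23 with a median of -0.04, and 31 of 49 were below 0, against 49.2% of all regions. The precipitate was higher in 8 of 10 HoxC regions, 6 of 13 in HoxA, 5 of 13 in HoxB and 4 of 13 in HoxD. Which culture gave the treated input is not settled by the labels, and its part in these values was not tested.

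The regions with the highest difference were named by rank within each cluster. HoxC region 2, the low region with 4 dim probes, had the highest of all, 0.44 (SD over 8 probes 0.42), with 6 of 8 probes higher, short of the 80% rule. Over its 4 probes measured in both channels it was 0.34, its input differed by -0.23 and its precipitate by 0.06, and the authors' deposited table gave 0.27. The median levels, -1.01 and -1.30, run the other way, because the 2 probes in the middle of the order on both arrays are the 2 that were lower with thymidine, by -0.09 and -0.49. HoxC region 8 differed by 0.35 (SD over 7 probes 0.29, 5 of 7 higher) and by -0.02 once the level trend was removed. The 5 of these measured in both channels gave 0.00, against 0.03 in the authors' deposited table.

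HoxD region 11 (74511869 to 74513431) differed by 0.39 (SD over 6 probes 0.18), and all 6 probes were higher and measured in both channels. Its untreated levels in base order were 0.66, 0.75, -0.09, -0.52, -1.08 and 0.10, and its treated levels were 0.97, 1.13, 0.30, -0.50, -0.62 and 0.63. The precipitate difference was 0.20, the highest of the 49, the input difference -0.12, and the authors' deposited table gave 0.23. By ratio difference 96.6% of all regions were lower than it. HoxD region 7 differed by 0.21 (SD over 7 probes 0.27), with 6 of 7 probes higher.

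In HoxB, region 10 differed by 0.32 (SD over 6 probes 0.43), where the 4 probes bright in both channels gave 0.07. HoxB region 5 (96178421 to 96179920) differed by 0.27 (SD over 7 probes 0.32, 5 of 7 higher), against 0.02 in the authors' deposited table. Its median levels, 0.20 in untreated and -0.05 in treated cells, run the other way. In HoxA the highest were region 7 (52162568 to 52166504), the longest tiled region of the clusters, at 0.21 (SD over 14 probes 0.29, 13 of 14 higher), and region 2 (52114331 to 52115926) at 0.19 (SD over 7 probes 0.35), with a precipitate difference of -0.05. The authors' deposited table gave 0.24 and 0.00.

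Besides HoxD region 11, 2 further regions had every kept probe higher and were singled out after their values were seen. HoxB region 1 (96225775 to 96227492), the outermost on the Hoxb1 side, differed by 0.22 with all 8 probes between 0.07 and 0.43 (SD 0.12), with a precipitate difference of -0.01 and an input difference of -0.13. HoxA region 11 differed by 0.18 with all 6 probes between 0.01 and 0.28 (SD 0.09), with a precipitate difference of 0.18 and an input difference of 0.01. The authors' deposited table gave 0.25 and 0.12. Similar ratio differences in these regions thus lay in different channels. At least 80% of probes were higher, at any size, in 9 of the 49 regions (18.4%, against 15.9% of all regions) and lower in 1 (2.04%, against 4.93%).

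Lower ratios after thymidine were few and small. HoxA region 3 had the lowest difference of the clusters, -0.22 (SD over 6 probes 0.25), with 5 of 6 probes lower and all 6 measured in both channels. Its untreated levels in base order were 1.38, -0.00, 0.42, 0.72, 0.05 and 1.81, and its treated levels were 1.12, 0.35, 0.09, 0.53, -0.17 and 1.60. Its input was higher by 0.23, the highest input difference of the 49 regions, its precipitate differed by -0.05, and the authors' deposited table gave -0.26. HoxA region 12 (52193942 to 52196905) differed by -0.12 (SD over 15 probes 0.29), with 9 of 15 probes lower, and by -0.23 in the authors' deposited table. HoxD region 2 (74589489 to 74591117) differed by -0.14 (SD over 4 probes 0.31) and HoxD region 8 by -0.09 (SD over 5 probes 0.32). The lowest of HoxB were region 4 at 0.02 (SD over 6 probes 0.20) and region 3 (96203787 to 96205518) at 0.04 (SD over 6 probes 0.25). From the precipitate alone, where the median over all probes was 0.00 in place of 0.07, both were below 0, at -0.06 and -0.06. Region 4 was also below 0 with loess, at -0.04, over probes measured in both channels and in the authors' deposited table. The lowest of HoxC were region 5 (102806163 to 102807703) at 0.10 (SD over 8 probes 0.36) and region 7 (102783672 to 102785319) at 0.10 (SD over 8 probes 0.19).

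The order of the clusters by their difference held under the processing settings only at its ends. HoxC was highest under the main processing and under each of 8 alternatives, from 0.04 with the precipitate alone to 0.20 with loess. Under the same settings the median over all probes was 0.00 and 0.05. With both channels above background HoxC and HoxD were both at 0.13 after rounding. HoxA was lowest of the 4 except with the precipitate alone, where HoxD was at -0.01. After removal of the level trend, which sets the median of all probes to 0, the values were 0.02 in HoxA, 0.07 in HoxB, 0.13 in HoxC and 0.07 in HoxD. In the authors' deposited table they were 0.01, 0.07, 0.13 and 0.06, with 0.01 over all probes.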

How the data were processed

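The members and lists were chosen with earlier results of these data known, by a rule that uses positions alone. Scanner files of 2 arrays were used, 1 untreated and 1 thymidine-treated. The scanner software was Agilent Feature Extraction, version 11.0.1.1, with a grid built on mm9, per the file headers. The deposited intensity values are processed signals (background-subtracted, scaled by a linear dye factor) and raw medians, per the file headers. The deposited log10 ratios and their errors are the scanner software's, per the file headers. The log2 values of the authors' deposited table have a base, normalisation and smoothing not given in the sources used here. They were read as log2, which is not settled. They correlated at 0.92 with the log2 ratio of raw medians on each array, with slopes of 0.67 and 0.77. A correlation is the same for any base, and these slopes do not fix the base. Their column medians were -0.01 and -0.02.

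From these, log2 of Cy5 over Cy3 processed signal was centred on the median of kept probes, with no loess or quantile step. Kept probes were no control (5827 spots were), had no outlier flag (57 did, 0 in Hox clusters) and had input well above background on both arrays. A region joined probes with starts under 1000 bp apart and needed 3 kept probes. Per cluster, the text names 3 regions at the top and 3 at the bottom by mean level, and 2 at each end by difference, 33 in all, besides those said to be chosen later. Alternatives were normexp (limma 3.58.1, offset 50), loess, quantile normalisation, other filters and thresholds, trend removal, single channels and the authors' table. Alternatives with other filters were centred on the median of their own probes. Calling was tested on simulated data. With 1 array per group no p-value was computed, and slide, scan and the labelled sort cannot be told apart from treatment. The number of arrays limits the precision.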

Additional observations from a re-analysis of the deposited data

How the results depend on the processing

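A value was taken as moved when it shifted by more than the SD of single replicate control spots, or when a count changed by over 1.5 times. That SD is not the error of a median over many probes, so a smaller shift is no sign of stability. It exceeds the differences of HoxA, HoxB and HoxD, the untreated level of HoxD and the treated level of HoxB. No paired analysis was possible because each condition had 1 array. Leaving out an array was likewise not possible. Levels with both channels above background or without the dim filter include the shift of their own centring. By this bar 12 of 64 alternative cluster levels and 1 of 40 cluster differences moved. Those for untreated cells were HoxA at 0.028 with both channels above background, HoxC at 0.0087 with loess and 0.049 in the authors' table, and means over probes of -0.066 in HoxB, -0.15 in HoxC and -0.013 in HoxD, where the mean over all kept probes was -0.15. For treated cells they were HoxB at 0.23 with both channels above background, and HoxC at 0.16 with normexp, 0.17 with loess, 0.16 without the dim filter, 0.14 in the authors' table and 0.075 as a mean, against -0.077 over all kept probes. From the precipitate alone the HoxC difference was 0.044, with the median over all probes at 0.0 in place of 0.066. Within the bar those of HoxA, HoxB and HoxD were -0.0026, 0.0012 and -0.0081. HoxA, at 0.059 by the ratio, was below the median over all probes either way. HoxD, at 0.13 by the ratio, went from above that median to below it.

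Counts of low probes over the 4 clusters, 47 untreated and 30 treated, were 5 and 0 with normexp, 28 and 17 with loess, 12 and 7 with both channels, 6 and 0 in the authors' table and 25 and 13 at a threshold of 1.5. Without the dim filter the treated count was 48. Counts of high probes, 28 and 36, were 15 and 16 with normexp, 7 and 8 in the authors' table and 9 and 12 at 1.5. The untreated count was 43 without the dim filter and the treated count 23 with both channels. The normexp offset shrinks ratios by construction. Counts in the authors' table also depend on its log base, which is not stated. For the other changes the cause was not tested. No Hox region passed the difference rule in either direction under any of 8 alternatives. Over all regions the share passing as higher ran from 0.0% with the precipitate alone to 0.507% with loess. The share passing as lower ran from 0.0139% with normexp to 0.181% with the level trend removed. A count of 0 in 49 is near these shares and says little about the Hox regions. At a threshold of 0.3, 3 Hox regions were higher, against 5.05% of all regions. Among alternative values of the named regions 209 moved and 451 did not.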

Other observations

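Position within a tiled region was also compared, over probes less than 300 bp, 300 to 600 bp and 600 to 900 bp from the middle of their region, bins chosen after the data were seen. In HoxA the 27 central probes had a median level of -0.16 in untreated and -0.29 in treated cells, against 0.17 and 0.28 at the 32 intermediate and 0.16 and 0.22 at the 34 outer probes. In HoxC the 20 central probes had 0.06 and 0.19, the 25 intermediate ones 0.11 and 0.04 and the 24 outer ones 0.24 and 0.51. HoxD had 0.35 and 0.25 at 31 central, -0.05 and -0.05 at 25 intermediate and 0.13 and 0.22 at 26 outer probes. HoxB had 0.04 and 0.09 at 32 central, 0.16 and 0.15 at 28 intermediate and 0.00 and 0.00 at 33 outer probes. No steady change from the middle outwards was seen on both arrays in any cluster. Over all regions of the array the central and outer medians were -0.01 and -0.02 in untreated cells. Where gene starts lie within these regions is not reported, so a central probe is not a start site.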
